A study of Mus musculus with 2 samples.

Results

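Autophagy is the route by which a cell encloses part of its cytoplasm in a double membrane, the autophagosome, and delivers it to the lysosome for breakdown, and mitophagy is the form of it that removes mitochondria. A kinase complex around ULK1 starts the process, a class III PI3-kinase marks the membrane with PI3P, ubiquitin-like conjugation then fixes proteins of the ATG8 family to the growing membrane, and receptors tie the cargo to them. In adipose tissue of mice, loss of *Atg5* or *Atg7* in fat cells is known to give white depots brown-like features, and mitophagy is known to accompany the return of beige adipocytes to a white state. The genes were chosen by name: every gene whose symbol is Atg followed by a number, and 26 other named genes of the pathway. This rule found 41 of the 18193 genes on the arrays, 18 of the Atg series and 23 of the 26 others. *Optn* and *Park2* had no probe set listed under their name in the platform annotation. *Bnip3l*, an outer membrane receptor of mitophagy, is listed only together with its pseudogene, so that its 3 probe sets name neither gene. These 3 probe sets had signal log ratios of 0.09, -0.17 and -0.15.

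The RNA came from perigonadal WAT of female PeriA Tg mice and of their WT littermates, all on the C57BL/6 background, sampled at an age of 30 weeks after 25 weeks on the HFD. The Tg mice were heterozygous for a transgene that expresses human PeriA, a lipid droplet coat protein, under the adipocyte-specific aP2 promoter/enhancer, and the WT littermates lacked it. Food had been withdrawn from mice of both genotypes for the night before harvest, and fasting is a known stimulus of autophagy in many tissues. RNA of 3 mice was pooled for each genotype, and each pool was hybridised to 1 array, so that no value below has an error over mice and no difference was tested.

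The signal of a probe set is its brightness on a linear scale, scaled by the authors over each whole array. The signal log ratio is log2 (Signal of Tg/Signal of WT), and 0.3 and -0.3 were the limits that the study's methods set. A gene was read from its brightest probe set. Genes passed when either array gave a signal of 98.2 or more, which is the median over all probe sets and both arrays. This filter stands in for detection calls, which were not used here. Of the 41 autophagy and mitophagy genes, 40 passed, as did 11587 of all genes. *Atg9b*, a second form of the scramblase ATG9, was the gene that did not pass, with signals of 29.8 in Tg and 40.2 in WT. Log2 ratios of passing probe sets of the same gene had a pooled SD of 0.41 (over 5260 genes), which describes readings of the same pools and is wider than the limit of 0.3. The adipocyte markers *Fabp4*, *Car3* and *Adipoq* had signals of at least 41052 on both arrays, and all 10 measured adipocyte markers passed the filter. The signal of transgenic PeriA was not analysed here.

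The mRNAs of autophagy and mitophagy had no common direction between Tg and WT. Of the 40 genes, 5 had a log2 ratio over 0.3 (12.5%), whereas 16.6% of all passing genes did, and 4 were under -0.3 (10.0%), whereas 16.9% of all passing genes were. The other 31 lay between, so that 22.5% were past either limit, against 33.6% of all passing genes. The median log2 ratio was -0.004 for the autophagy and mitophagy genes and 0.02 for all passing genes, and 20 of the 40 were above 0 and 20 below. Their quartiles were -0.19 and 0.13, and those of all passing genes were -0.19 and 0.22. Scatter on these arrays is wider for dim probe sets: with the filter set at 470.5, 25.7% of 7180 genes were past either limit, and of the 30 autophagy and mitophagy genes left, 7 were (23.3%). Under this filter, the share was near the background. The genes over 0.3 were *Ulk1*, *Pink1*, *Atg4d*, *Atg5* and *Pik3r4*, and those under -0.3 were *Atg101*, *Ambra1*, *Sqstm1* and *Wipi2*. Of these 9 genes, 7 exceeded the pooled SD between probe sets, and *Atg101* was the only one to exceed 2 such SDs. Just inside the limits lay *Pik3c3* at 0.29 and *Atg10* at 0.27 on the upper side, with *Rubcn* at -0.26 and *Atg4b* at -0.25 on the lower side.

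**Figure D1:**
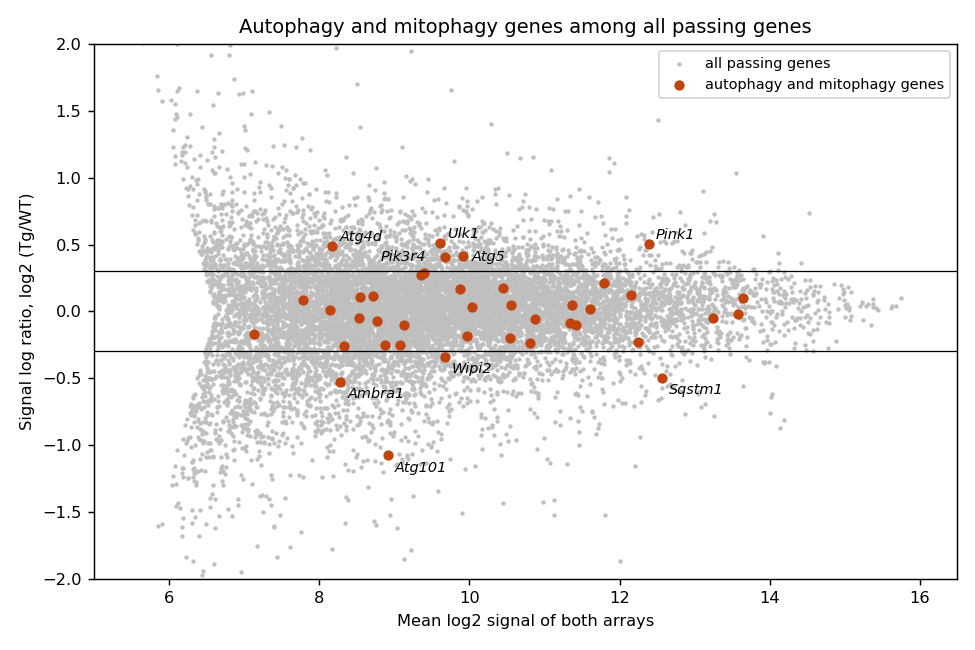
Signal log ratio, log2 (Tg/WT), on the vertical axis and mean log2 signal over the 2 arrays on the horizontal axis for 11587 passing genes (grey), with the 40 autophagy and mitophagy genes as larger points and 1 array of pooled RNA per genotype. Solid lines mark 0.3 and -0.3; the 9 genes beyond them are named, 47 other genes lie outside the axes, and *Atg101* is the lowest of the marked points.

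In the ULK1 complex, which starts autophagosome formation, 1 of 5 genes was over 0.3, 1 was under -0.3 and the median log2 ratio was -0.07. *Atg101*, a partner that stabilises ATG13 in this complex, had a signal of 331.7 in Tg and 700.0 in WT, a log2 ratio of -1.08. It has a single probe set on the array, so that no second reading of the same pools was possible. *Ulk1*, the kinase itself, had 934.8 in Tg and 655.6 in WT on its brightest probe set, a log2 ratio of 0.51. Its other probe set went the opposite way, with 125.6 in Tg and 220.8 in WT (-0.81), and *Ulk1* was the only gene of the 40 with passing probe sets past the limits in both directions. The direction of *Ulk1* therefore depends on which probe set is read. *Rb1cc1*, which encodes the scaffold FIP200, had 1060 in Tg and 1036 in WT on the brightest probe set (0.03) and a log2 ratio of 0.51 on a dimmer one. *Ulk2*, the paralog of *Ulk1*, had 2527 in Tg and 2683 in WT (-0.09), and its 4 passing probe sets all lay below 0, from -0.37 to -0.03. *Atg13*, the subunit that links kinase and scaffold, had -0.07 and -0.40.

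Among the class III PI3-kinase and its regulators, 1 of 7 genes passed the upper limit and 1 the lower, and the median log2 ratio was 0.05. The catalytic subunit and its constant partner were both on the higher side. *Pik3r4*, which encodes the regulatory subunit VPS15, had 943.9 in Tg and 711.6 in WT (0.41), and *Pik3c3*, which encodes the lipid kinase VPS34, had 745.1 in Tg and 609.1 in WT (0.29). Each of these genes has 1 probe set, and that of *Pik3r4* may read several transcripts by its suffix. *Becn1*, the core scaffold beclin 1, had 2682 in Tg and 2595 in WT (0.05), and its 3 passing probe sets lay between -0.16 and 0.05. The subunits that decide where the kinase acts were inside the limits: *Atg14*, which directs it to the forming autophagosome, had 0.10, and *Uvrag*, which takes the place of ATG14 in the endosomal form, had -0.20. *Rubcn*, an inhibitor of the UVRAG form, had 293.9 in Tg and 351.7 in WT (-0.26). *Ambra1*, a regulator that binds beclin 1, had 259.5 in Tg and 373.5 in WT on its brightest probe set (-0.53). Its other 2 passing probe sets had 0.29 and 0.28, so that its direction is not settled by these readings.

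For the proteins that supply lipid to the growing membrane or read its PI3P, 6 of 7 genes passed the filter, none was over 0.3, 1 was under -0.3 and the median log2 ratio was -0.08. *Wipi2*, the PI3P reader that recruits ATG16L1, had 725.0 in Tg and 917.7 in WT (-0.34), and its dimmer passing probe sets had -0.13 and 0.29. *Wipi1*, a related reader, was measured by 6 passing probe sets, of which the brightest had 1840 in Tg and 1918 in WT (-0.06). The 6 lay between -0.52 and 0.02, and the lowest of them was the dimmest. *Vmp1*, a lipid scramblase of the endoplasmic reticulum, had 2657 in Tg and 2850 in WT (-0.10) on the brightest probe set and 824.4 in Tg and 1253 in WT (-0.60) on the other. The scramblase gene *Atg9a* and the lipid transfer genes *Atg2a* and *Atg2b* had -0.10, 0.01 and 0.09.

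Conjugation fixes ATG12 to ATG5 and ATG8 proteins to lipid. Of its 7 genes, 1 was past the upper limit and none past the lower, and the median log2 ratio was 0.12. *Atg5* had 1112 in Tg and 834.4 in WT on its brightest probe set (0.41), and 0.30 and -0.10 on the other 2. The probe set read for *Atg5* carries the suffix that Affymetrix gives to probes shared by several transcripts, and without such probe sets *Atg5* had 0.298, just inside the limit. *Atg12*, the ubiquitin-like partner of ATG5, lay on the other side of 0 with both passing probe sets, at 1647 in Tg and 1944 in WT (-0.24) and at 456.3 in Tg and 693.7 in WT (-0.60). *Atg7*, the enzyme that activates both ATG12 and the ATG8 proteins, had -0.25, 0.04 and -0.23. The downstream enzymes *Atg3* and *Atg10* had 0.12 and 0.27, the subunit *Atg16l1* had 0.17 and its paralog *Atg16l2* had -0.17. Of the 4 ATG4 proteases, which trim ATG8 proteins before conjugation and free them afterwards, *Atg4d* was over 0.3, with 341.8 in Tg and 243.6 in WT (0.49). *Atg4a*, *Atg4b* and *Atg4c* had -0.18, -0.25 and 0.11, so that the proteases did not move together.

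All 5 genes of the ATG8 family, the proteins that coat the autophagosome, were inside the limits, with log2 ratios from -0.23 to 0.10 and a median of -0.02. *Map1lc3b*, which encodes the LC3 protein most used as an autophagosome marker, had 13285 in Tg and 12406 in WT (0.10), and its 2 dimmer passing probe sets had 0.18 and 0.12. *Gabarap* had 12118 in Tg and 12270 in WT (-0.02). *Gabarapl2* had 3122 in Tg and 3091 in WT (0.01), and *Map1lc3a* had 9566 in Tg and 9891 in WT (-0.05). *Gabarapl1* was the lowest of the family, with 4501 in Tg and 5262 in WT (-0.23). A dimmer probe set of *Gabarapl1* had 1647 in Tg and 2605 in WT (-0.66), and one of *Map1lc3a* had -0.38, so that for these genes the value inside the limits belongs to the brightest probe set alone. Both of those brightest probe sets carry suffixes for probes shared with other transcripts.

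Receptors recognise the cargo and bind ATG8 proteins. *Sqstm1*, which encodes the ubiquitin-binding receptor p62, had 5103 in Tg and 7192 in WT, a log2 ratio of -0.50 on its only passing probe set. *Nbr1*, a receptor of similar build, had 3826 in Tg and 3294 in WT (0.22) on the brightest probe set and -0.22 on the other. *Calcoco1*, a receptor for endoplasmic reticulum, had -0.05. *Pink1*, the kinase that gathers on damaged mitochondria and activates parkin, had 6375 in Tg and 4502 in WT, a log2 ratio of 0.50. Its second probe set had 5821 in Tg and 4299 in WT (0.44). *Pink1* was the only gene of the 23 with at least 2 passing probe sets in which all of these were over 0.3, and in no gene were all under -0.3. *Fundc1*, an outer membrane receptor of mitophagy, had 1527 in Tg and 1474 in WT (0.05) and lower values of -0.09 and -0.54 on dimmer probe sets. *Tecpr1*, which acts in the fusion of autophagosomes with lysosomes, had 0.18 and -0.15.

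**Figure D2:**
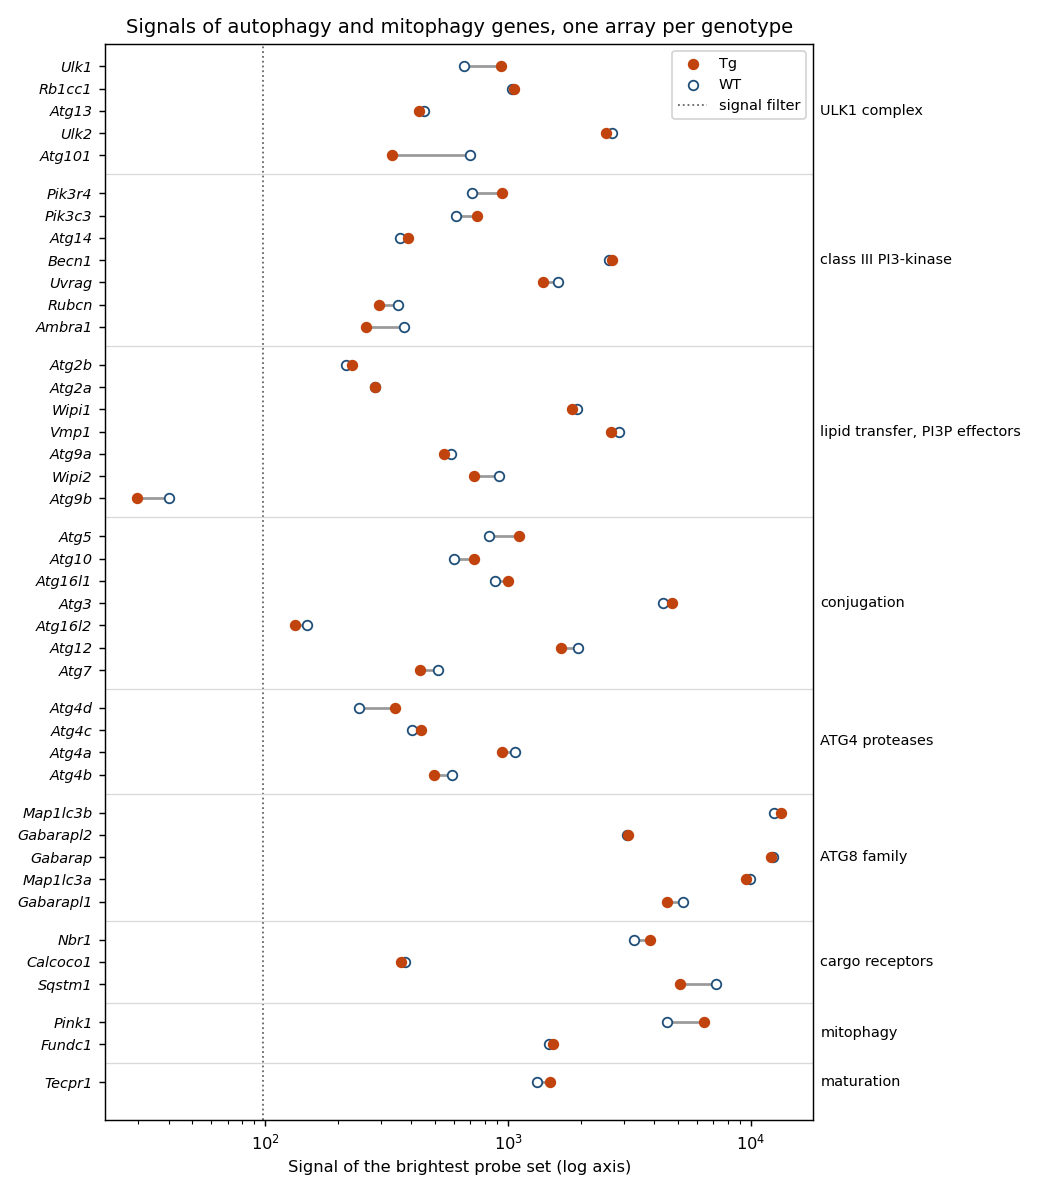
Signals of the brightest probe set on a log axis for the 41 genes, grouped by role down the page, with Tg as filled and WT as open points and 1 array of pooled RNA per genotype. The dotted line is the filter of 98.2, which only *Atg9b* fails; the widest gap is that of *Atg101*, the ATG8 family points nearly coincide, and brightness is not comparable between genes.

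Readings from several probe sets of one gene often differed by as much as the limit. Of the 40 genes, 23 had at least 2 passing probe sets, and the range of log2 ratios within a gene had a median of 0.37, up to 1.33 for *Ulk1*. In 9 of the 23 genes all passing probe sets lay on the same side of 0, 3 of them above and 6 below. The 3 above were *Map1lc3b*, *Pink1* and *Rb1cc1*. Among the 31 genes inside the limits, 8 had a dimmer passing probe set under -0.3 and 1 had a dimmer one over 0.3. Such counts by side were not made over all genes, so they are not read as a trait of the autophagy and mitophagy genes. The 36 dimmer probe sets had a log2 ratio below that of the brightest in 23 cases (63.9%), with a median difference of -0.13. Over all genes, 59.3% of 8796 dimmer probe sets lay below the brightest, with a median difference of -0.08. Read from the second-brightest probe set, 2 of the 23 genes lay over 0.3 and 6 lay under -0.3, against 16.9% over and 25.9% under of all genes with such a probe set, so that the lower count was near the background. Their median was then -0.13, and for all 5260 genes with such a probe set the median was -0.03. Beside these values stands a difference between the arrays: the bacterial poly-A controls go through labelling with the RNA of the mice, and in 8 pairs of their probe sets the 5' log2 ratio was lower than the 3' one by a median of -0.55. These 8 pairs read dap, lys, phe and thr more than once each, so they are not independent. For 8 pairs of hybridisation controls, added after labelling, the median was -0.01. For 3 mouse transcripts, those of actin, *Gapdh* and pyruvate carboxylase, it was -0.25 (-0.33 to -0.16). Other mouse controls were wider apart, with 0.31 for 18S RNA and -1.67 for the transferrin receptor. The 5' signals of the latter were only 5.6 in Tg and 30.9 in WT. The part of this difference between the arrays in the autophagy and mitophagy values was not tested.

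**Figure D3:**
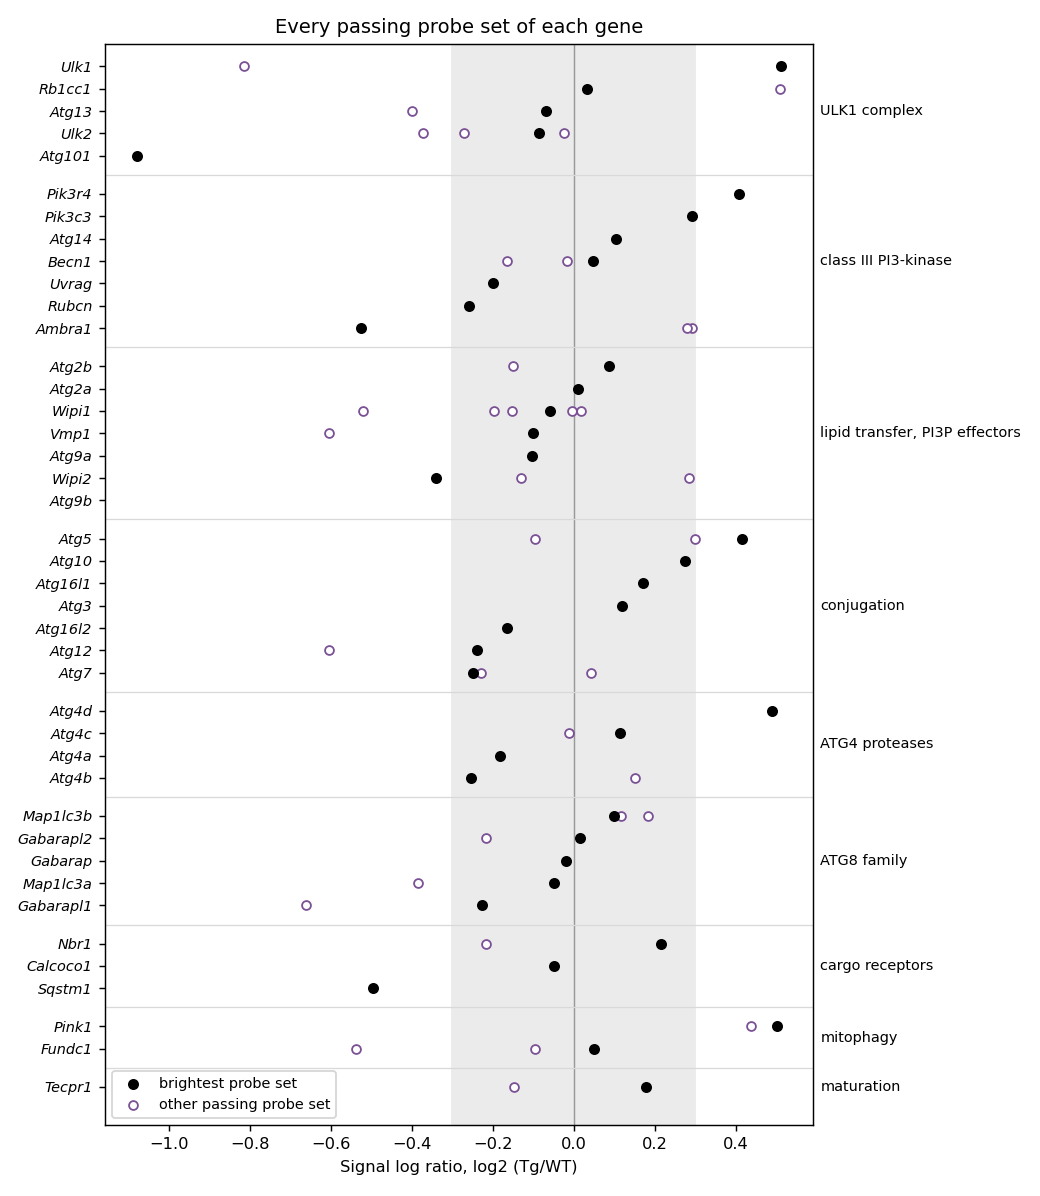
Signal log ratio, log2 (Tg/WT), of every passing probe set of the autophagy and mitophagy genes, grouped by role down the page, with the brightest as filled and the others as open points. The grey band covers -0.3 to 0.3; both points of *Pink1* lie right of the band, those of *Ulk1* lie on opposite sides of it, and *Atg9b* has no passing probe set.

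Sequences just upstream of the transcription start were examined for the letters of factors known to act on autophagy genes, and for the GC box. RefSeq promoters of mouse build GRCm38.p6 were matched to 35 of the 41 genes, and 250 bases before each start were searched on both strands. The E-box CACGTG, to which TFEB and related factors bind, was present for 4 genes, *Atg3*, *Atg5*, *Atg7* and *Rubcn*, which is 9.76% of the 41 promoters of the matched genes, against 6.02% of all 32851 promoters. Its longer form TCACGTG, which overlaps it, was found for *Atg3*, *Atg7* and *Rubcn*, 7.32% of promoters, against 3.13% of all. Of the genes with an E-box, *Atg5* alone was past a limit. The FOXO motif GTAAACA was found in none of these windows, against 3.17% of all promoters. The antioxidant response element TGACNNNGC was present for *Atg13*, *Ulk2* and *Vmp1*, in 12.2% of promoters against 10.2% of all. The GC box GGGCGG was present for 21 of the 35 genes, in 51.2% of promoters against 32.7% of all. These included 4 of the genes over 0.3 and 2 of those under -0.3. The background of all promoters was not limited to genes that pass the filter, so the difference is not read as a trait of autophagy genes. A match describes letters and not binding. The windows below are those of *Atg101* and *Sqstm1*, both under -0.3, and of *Pink1*, *Pik3r4* and *Atg5*, over 0.3. Each runs 5′ to 3′ on the strand of the gene and ends at the base before the start; capitals mark the E-box and GC box on either strand.
Atg101 (chr15:101284051-101284300, + strand): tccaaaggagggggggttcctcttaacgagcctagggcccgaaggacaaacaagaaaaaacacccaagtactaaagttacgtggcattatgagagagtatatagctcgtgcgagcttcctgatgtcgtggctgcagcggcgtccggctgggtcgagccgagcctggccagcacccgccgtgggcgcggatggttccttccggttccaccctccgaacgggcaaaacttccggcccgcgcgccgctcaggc
Sqstm1 (chr11:50210821-50211070, - strand): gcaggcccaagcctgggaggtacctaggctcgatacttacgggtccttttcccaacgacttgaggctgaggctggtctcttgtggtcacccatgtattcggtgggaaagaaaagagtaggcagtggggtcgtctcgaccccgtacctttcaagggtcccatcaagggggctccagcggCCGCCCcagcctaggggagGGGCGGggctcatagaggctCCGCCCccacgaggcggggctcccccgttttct
Pink1 (chr4:138326297-138326546, - strand): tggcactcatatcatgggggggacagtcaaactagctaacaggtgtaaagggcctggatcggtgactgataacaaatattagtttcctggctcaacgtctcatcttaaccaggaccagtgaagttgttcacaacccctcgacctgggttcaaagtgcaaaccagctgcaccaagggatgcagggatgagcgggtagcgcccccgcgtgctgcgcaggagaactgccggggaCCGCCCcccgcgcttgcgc
Pik3r4 (chr9:105642745-105642994, + strand): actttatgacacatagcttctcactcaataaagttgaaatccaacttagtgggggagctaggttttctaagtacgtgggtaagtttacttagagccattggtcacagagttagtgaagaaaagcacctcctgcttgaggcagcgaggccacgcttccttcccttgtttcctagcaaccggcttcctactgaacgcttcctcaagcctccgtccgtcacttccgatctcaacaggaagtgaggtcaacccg
Atg5 (chr10:44268089-44268338, + strand): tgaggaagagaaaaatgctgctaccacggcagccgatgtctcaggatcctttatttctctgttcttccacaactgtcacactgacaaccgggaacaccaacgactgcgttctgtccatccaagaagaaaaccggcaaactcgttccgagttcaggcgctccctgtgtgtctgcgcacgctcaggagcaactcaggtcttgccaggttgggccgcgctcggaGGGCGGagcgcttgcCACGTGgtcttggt
*Sqstm1* has 3 GC boxes and *Pink1* has 1, and their log2 ratios were -0.50 and 0.50. A relation between these letters and the log2 ratios was not tested. *Atg5* has 1 E-box and 1 GC box close to the start. *Atg101* and *Pik3r4*, at -1.08 and 0.41, have none of the letters searched.

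Genes that act around the core machinery were read from lists of the same pathway. Of 19 transcription factors and coactivators known to regulate autophagy genes, 17 passed the filter. Of these, 5 were over 0.3, 1 was under -0.3 and the median log2 ratio was 0.10. The share past either limit was 35.3%, near the 33.6% of all passing genes. *Tfeb*, the factor best known for switching on lysosomal and autophagy genes, had 390.6 in Tg and 187.7 in WT (1.06). *Zkscan3*, known from human cells as a repressor of the same genes, had 712.5 in Tg and 447.2 in WT (0.67), and its 3 passing probe sets were all over 0.3. *Ppara*, a nuclear receptor of fatty acid oxidation, had 1.97. *E2f1*, a cell cycle factor, had 213.9 in Tg and 352.3 in WT (-0.72). *Tfeb* has a single passing probe set.

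Of 24 genes of mTORC1 and AMPK, the kinases that hold back and promote autophagy, 23 passed, 3 were over 0.3, 4 were under -0.3 and the median log2 ratio was -0.01. The share past either limit was 30.4%, against 33.6% of all passing genes. *Mlst8*, a subunit of mTORC1, had 114.1 in Tg and 170.4 in WT (-0.58), and *Rptor*, which recruits the substrates of mTORC1, had 386.8 in Tg and 571.1 in WT (-0.56). *Prkaa1*, a catalytic subunit of AMPK, had 563.6 in Tg and 414.2 in WT (0.44). *Prkab2*, a regulatory subunit of AMPK, had 0.46 on the brightest probe set but as low as -1.12 on another, so that its direction is not settled.

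Of 22 further genes of mitophagy and its mitochondrial partners, all passed. On the brightest probe set, 5 lay over 0.3 (22.7%, against 16.6% of all passing genes), none lay under -0.3 and the median log2 ratio was 0.11. The share past either limit was thus below the 33.6% of all passing genes. Dimmer passing probe sets of these genes ran from -1.03 to 0.79. *Fkbp8*, an outer membrane receptor of mitophagy, had 1834 in Tg and 965.4 in WT (0.93). *Usp30*, a deubiquitinase that opposes parkin, had 429.6 in Tg and 260.1 in WT (0.72), and both of its passing probe sets were over 0.3. *Rhot2*, which encodes the transport protein MIRO2, had 269.4 in Tg and 161.3 in WT (0.74), and *Nipsnap2* had 0.43. *Fkbp8*, *Rhot2* and *Nipsnap2* each have 1 passing probe set. As background, MIRO2 is a substrate of parkin, and NIPSNAP2 marks damaged mitochondria for autophagy. Of 14 receptors and related factors for endoplasmic reticulum, iron stores and other cargo, 2 were over 0.3 and none was under -0.3 on the brightest probe set. Their share past either limit was 14.3%, below the 33.6% of all passing genes. *Stbd1*, a glycogen-binding receptor, had 841.3 in Tg and 582.4 in WT (0.53), *Nufip1* had 0.47, *Ncoa4*, the receptor for ferritin, had 0.29 and *Retreg1* had 0.21.

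Of 19 genes of autophagosome to lysosome fusion, 3 lay over 0.3, 2 lay under -0.3 and the median log2 ratio was -0.03. The share past either limit was 26.3%, against 33.6% of all passing genes. The extremes were *Vps18*, a subunit of the HOPS tether, with 100.7 in Tg and 165.3 in WT (-0.72), and *Rilp*, an effector of the small GTPase RAB7, with 428.0 in Tg and 276.5 in WT (0.63). *Vps33a*, another subunit of HOPS, had -0.53, and *Snap29*, a SNARE of the fusion step, had 0.45 with another probe set at -0.45. A second-brightest passing probe set was present for 12 of the 19 fusion genes. Their median on it was -0.37, whereas that of all genes so read was -0.03. Of 20 further factors of autophagosome formation, none was over 0.3 and 2 were under -0.3 on the brightest probe set. This share of 10.0% past either limit was below the 33.6% of all passing genes. Dimmer passing probe sets of these factors ran from -3.44 to 0.66. *Trp53inp2*, which binds ATG8 proteins, had 6785 in Tg and 10434 in WT (-0.62), and *Snx18*, a membrane-bending protein, had 806.3 in Tg and 1155 in WT (-0.52). The other passing probe set was inside the limits for both, at -0.09 for *Trp53inp2* and -0.12 for *Snx18*. *Ei24* had -0.29, and *Bcl2* had -0.28 on the brightest of 5 passing probe sets, which reached 0.66.

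**Figure D4:**
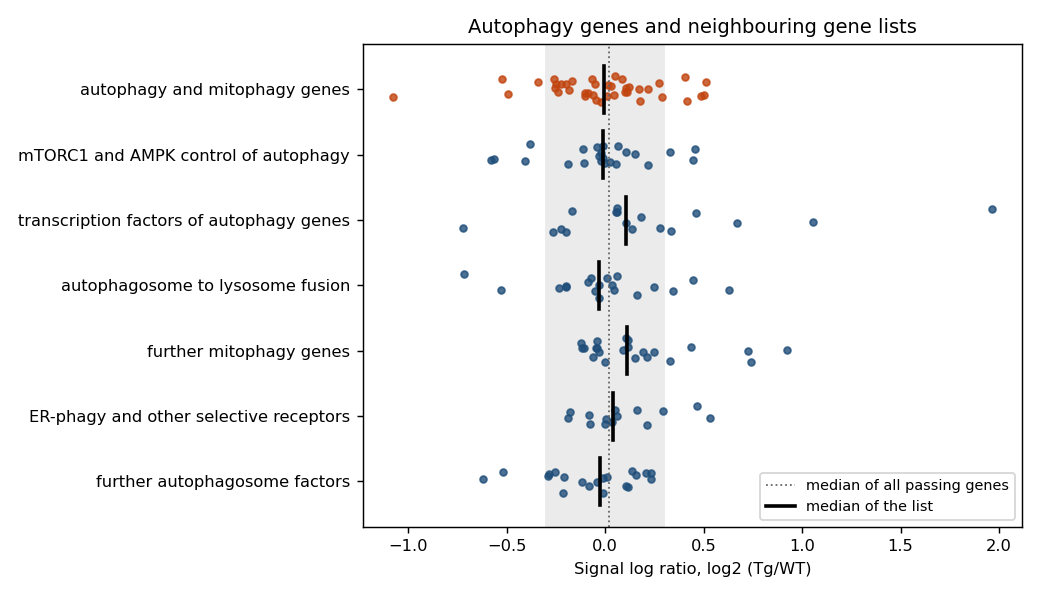
Signal log ratio, log2 (Tg/WT), of the passing genes in the autophagy and mitophagy set (top row) and in 6 neighbouring lists, one point per gene, with vertical bars at the medians and 1 array of pooled RNA per genotype. The grey band covers -0.3 to 0.3, the dotted line is the median of all passing genes at 0.02, the height within a row has no meaning, and the medians of the lists lie between -0.03 and 0.11.

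Markers of other cell types differed between the pools. Of 15 macrophage markers, all passed the filter, 9 were under -0.3 and none was over 0.3, and their summed signal was 63512 in Tg and 90102 in WT. None of the 15 was at 0, and the lowest signals among them were 107.6 in Tg and 251.5 in WT. *Lyz2*, *Lgals3* and *Ctss* had log2 ratios of -0.24, -0.76 and -0.78. Of the 15, 13 lay below 0, the same direction as *Sqstm1* and *Atg101*, and 2 lay above 0, with a range from -1.85 to 0.18. The part of these markers in the values of *Sqstm1* and *Atg101* was not tested. In bulk tissue, fewer cells of a type and less RNA per cell cannot be told apart. The 10 brown adipocyte markers were all over 0.3, with a summed signal of 28796 in Tg and 5274 in WT. Their lowest signals were 138.7 in Tg and 25.3 in WT, and some of them passed the filter through Tg alone. Their direction was that of *Pink1*, *Fkbp8* and *Tfeb*, and the part of these markers in those values was not tested either. Endothelial markers, with sums of 6835 in Tg and 7152 in WT, and fibroblast markers, with 91539 in Tg and 86646 in WT, were nearly level. Summed signals were 8078 in Tg and 6947 in WT for mesothelial, 1587 in Tg and 1939 in WT for T and B lymphocyte, and 7750 in Tg and 8429 in WT for skeletal muscle markers. Only 4 of the 8 skeletal muscle markers passed the filter. Some of them, *Pvalb* included, reached it in WT alone and so could only lie below 0. The brightest were *Acta1* (-0.03), *Myl1* (-0.06) and *Pvalb*, which had 49.6 in Tg and 391.0 in WT (-2.98).

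The 9 genes past the limits were read again under 11 other settings of scaling, low signals, filter and choice of probe set. *Atg101*, *Sqstm1*, *Pink1*, *Pik3r4* and *Atg4d* stayed past the same limit in every setting that gave them a value, from 9 settings for *Sqstm1*, *Pik3r4* and *Atg4d* to 11 for *Pink1*. Of these 5, *Pink1* alone was read from more than 1 passing probe set. For the other 4, a change of filter or probe set could only keep or drop the value. The floor also lay under their signals, so that these settings could not test them. *Ulk1* and *Ambra1* changed sign when the median over probe sets or the second-brightest was read. *Atg5* and *Wipi2* kept their sign but came within the limits under 3 settings each.

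**Figure D5:**
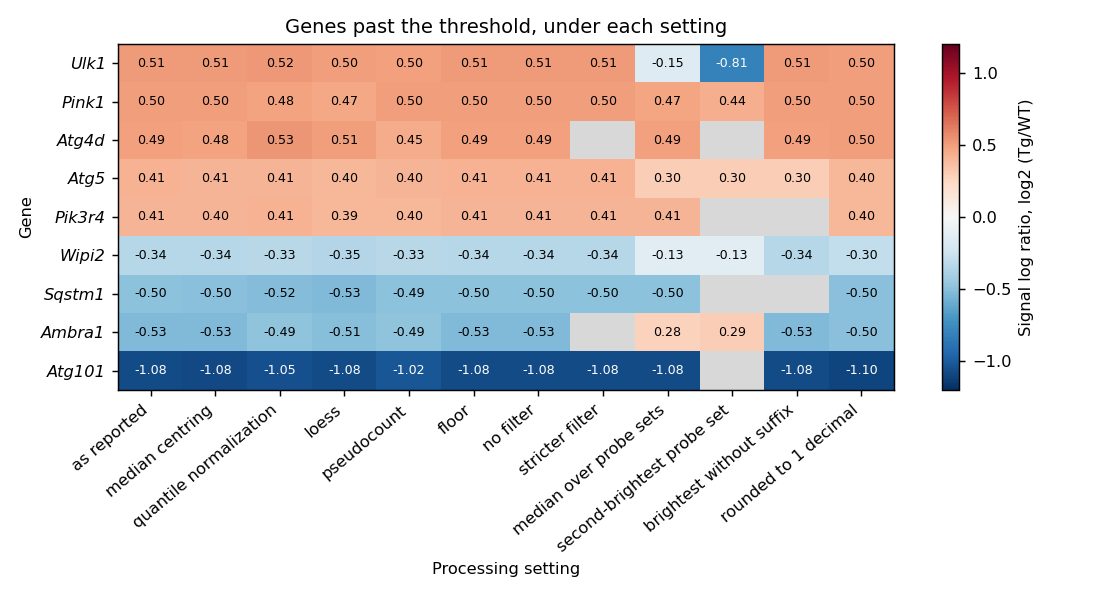
Signal log ratio, log2 (Tg/WT), as printed numbers and colours for the 9 genes past 0.3 or -0.3 (rows) under the reported setting and 11 others (columns), with grey where a setting gives no value. *Pink1* lies between 0.44 and 0.50 and *Atg101* between -1.10 and -1.02 in every column with a value, while *Ulk1* and *Ambra1* change sign in 2 columns each.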

How the data were processed

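Total RNA of perigonadal WAT was measured on the Mouse Genome 430 2.0 array in 2 samples, 1 pool of 3 mice per genotype. The deposited values are intensity values, the MAS5 signals that the authors made with GeneChip Operating Software; each array was scaled as a whole, and without the lowest and highest 2% its mean signal was 500.0. The table holds all 45101 probe sets and no Present calls. Genotypes were taken from the sample labels.

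Log2 ratios, Tg over WT, were taken from the deposited signals with no pseudocount, as the study's methods define it. The 64 control probe sets were left out. Gene names came from the platform annotation: 34945 probe sets had 1 symbol, 932 had several and 9160 were not listed. The members, gene lists and lists of markers were chosen with earlier results of these data known. All members are named; from each pathway list the 4 passing genes with the largest absolute log2 ratio are named, and from marker lists the 3 brightest, where any are named. No test was possible with 1 array per genotype, and the number of arrays limits the precision.

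Alternatives tried were a loess fit with a span of 0.3, quantile normalization, median centring, a pseudocount of 25.1, a floor of 56.9, no filter, a filter at 470.5, the median over probe sets, the second-brightest probe set, the brightest without a suffix, and rounding to 1 decimal. The reading of log2 ratios was checked on simulated data with planted changes and no added noise, which covers the arithmetic alone. Promoter sequences came from RefSeq. Python 3.11.15, numpy 2.4.6, pandas 2.3.3, statsmodels 0.14.6 and matplotlib 3.10.9 were used.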

Additional observations from a re-analysis of the deposited data

How the results depend on the processing

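No paired analysis was possible because there is 1 array per genotype, and for the same reason no replicate could be left out. The counts and the median of the autophagy and mitophagy genes were recomputed under 11 settings, and 29 of the 33 values stayed close to those reported, that is within 1.5 times for counts and within 0.1 for the median. The count over 0.3, reported as 5, was 3 with the median over probe sets. It was 3 with the brightest probe set without a suffix (of 35 genes) and 2 with the second-brightest (of 23 genes). With the second-brightest, the median was -0.13. The count under -0.3 was then 6 of 23 genes, against 4 of 40, which is close as a count but not as a share. Of all genes so read, 25.9% lay under -0.3. *Ambra1* changed sign to 0.28 with the median over probe sets and to 0.29 with the second-brightest, and *Ulk1* changed sign to -0.15 and -0.81 under the same settings. All 4 scaling and low-signal settings other than quantile normalization left 5 genes over 0.3 and 4 under -0.3; quantile normalization added *Pik3c3*. No setting moved the median of all genes by over 0.1. Among the neighbouring lists, 3 medians moved by over 0.1, all with the second-brightest probe set. The median of autophagosome to lysosome fusion was then -0.37 (12 genes). That of transcription factors and coactivators was 0.28 (12 genes). That of receptors and related factors for endoplasmic reticulum and other cargo was -0.09 (9 genes). The stricter filter left 4 genes over 0.3 and 3 under -0.3 of 30. Signals near the filter of 98.2, such as that of *Mlst8*, limit what the dim genes can show.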

Other observations

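Of the 95 probe sets of autophagy and mitophagy genes, 19 were under the signal filter, with signals of at most 91.7. Their log2 ratios spread far wider than those of the brighter probe sets of the same genes: 8 of the 19 were over 1 or under -1. The lowest was a dim probe set of *Rb1cc1*, with 0.70 in Tg and 17.4 in WT (-4.64), although the brightest of this gene had 0.03. The highest was another of *Map1lc3b*, with 15.6 in Tg and 2.50 in WT (2.64), although the brightest had 0.10. A dim probe set of *Atg12* had 12.6 in Tg and 50.5 in WT, in the same direction as its passing probe sets.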
